A study of Mus musculus with 2 samples.

Results

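Ciliated airway cells were studied in lung sections of RPR2 and CRPR2 mice, 1 section of each, with a targeted gene panel measured by Xenium In Situ, which counts transcripts in place by imaging probes on a tissue section. A cell was chosen by its counts: at least 20 gene transcripts, a cilia sum of at least 6 (the summed transcripts of *Ccdc153*, *Tmem212*, *Fam183b*, *Dynlrb2* and *1110017D15Rik*) and at most 1 transcript of the neuroendocrine (NE) genes *Chga*, *Chgb*, *Scg5*, *Snap25* and *Celf3*. The rule found 18574 of 493524 cells with at least 20 transcripts, 13057 of 152915 in RPR2 and 5517 of 340609 in CRPR2. Levels of the genes that chose the cells describe the rule and are not findings.

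Multiciliated cells line the conducting airways, where their motile cilia beat together and move mucus toward the throat. They arise from secretory and basal progenitors when Notch signaling is low, and the forkhead factor FOXJ1 and factors of the RFX family switch on the genes of the ciliary axoneme. Secretory club and goblet cells, their neighbors in the epithelium, supply secretoglobins and mucins.

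RPR2 is a mouse model of small cell lung cancer (SCLC) with knockout (KO) of *Rb1*, *Trp53* and *Rbl2*, made by instilling adenoviral Cre at 10 weeks of age into the trachea of mice that carry lox alleles of all 3 genes. CRPR2 has a germline KO of *Cracd* in addition, which all its cells carry. Cre from the virus acts in whichever lung cells are infected, so which ciliated cells lost *Rb1*, *Trp53* and *Rbl2* is not known from these counts. Both sections came from a single paraffin block, and mice of both sexes were used in the study. Of the deleted genes, the panel measures *Rb1* and *Trp53*, while *Cracd* and *Rbl2* were not analysed here. It was not determined whether the probes for these genes cover deleted exons, so no level here checks a genotype. In all, 154818 cells with 16313950 gene transcripts were segmented in RPR2 and 342845 with 37348565 in CRPR2. The data analysed here hold 1 section of each genotype without replicates, so no test was run, and genotype and section cannot be told apart. Values in parentheses are 95% intervals that cover counting error only (exact binomial for shares, exact Poisson for transcript sums and exact conditional for ratios). Levels are given per 1000000 gene transcripts (CPM) after adding up all cells of a group, and each section ratio is the log2 of the CRPR2 level divided by the RPR2 level. Probe sets differ between genes, so a statement that a gene leads a list refers to its transcripts counted and not to its expression relative to other genes.

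The promoters of the genes that chose the cells are shown because RFX factors act on cilia genes through the X-box, of which GTTGCC is one arm. In RefSeq windows from 250 bases before to 50 bases after a gene start (build GRCm38.p6), GTTGCC or its reverse complement GGCAAC was found in 4 of the 6 windows of these genes (*1110017D15Rik* has 2 starts). Of all 32851 windows of that length, 12.5% held it. The letters GTAAACA, a forkhead core, or TGTTTAC were in 0 of the 6 windows and in 3.65% of all windows. A match describes letters and not a bound site. The 60 bases around these arms (in capitals) are given 5′ to 3′ on the strand of the gene, for *Ccdc153* at chr9:44240497-44240556 (plus strand), *Dynlrb2* at chr8:116504936-116504995 (plus strand), *Fam183b* at chr11:58801970-58802029 (minus strand) and the second start of *1110017D15Rik* at chr4:41507765-41507824 (minus strand), all before the gene start.
Ccdc153: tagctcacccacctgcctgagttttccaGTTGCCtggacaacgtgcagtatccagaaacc
Dynlrb2: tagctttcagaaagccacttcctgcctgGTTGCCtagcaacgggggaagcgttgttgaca
Fam183b: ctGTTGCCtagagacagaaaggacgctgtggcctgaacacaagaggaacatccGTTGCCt
1110017D15Rik: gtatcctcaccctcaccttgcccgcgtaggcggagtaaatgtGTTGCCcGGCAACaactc
In *1110017D15Rik* the motif and its reverse complement stood 1 base apart, and *Fam183b* held the motif at 2 places. The *Tmem212* window and the first start of *1110017D15Rik* held neither motif.

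Ciliated cells had a median of 115 transcripts in RPR2 (quartiles, 89 and 145) and 129 in CRPR2 (96 and 170), against 99 and 101 in all other cells. The median cilia sum was 12 in RPR2 (highest, 71) and 11 in CRPR2 (highest, 56). *Ccdc153*, a coiled-coil gene used as a marker of ciliated cells, averaged 3.46 transcripts per ciliated cell in RPR2 and 3.51 in CRPR2. *Dynlrb2*, a roadblock light chain of dynein, averaged 2.69 and 2.72, and *Tmem212*, a membrane protein gene, 3.29 and 3.30. *Fam183b*, which encodes a cilia-associated protein, averaged 2.24 and 2.03, and *1110017D15Rik* 1.49 and 1.24. Transcripts of all 5 genes were found in 57.7% of RPR2 and 49.1% of CRPR2 ciliated cells. Of the section's transcripts of these genes, the chosen cells held 82.0% in RPR2 and 65.6% in CRPR2.

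The cilia sum had no gap at the limit of 6. In RPR2, 1435 cells with few NE transcripts had a sum of 5 and 1267 a sum of 6, and in CRPR2 745 and 663. *Foxj1* was at 12544 CPM just outside and 14539 CPM just inside in RPR2, and at 12246 and 13232 CPM in CRPR2. *Scgb3a2*, a secretoglobin of club cells, went the other way across the limit, from 89272 to 82957 CPM in RPR2 and from 72130 to 67741 CPM in CRPR2. At the other limit, 414 RPR2 and 333 CRPR2 ciliated cells had 1 NE transcript, and 47 and 78 cells with enough cilia transcripts had 2. Only 2 cells in RPR2 and 1 in CRPR2 reached a cilia sum of 6 but not 20 transcripts. Across the sections, 8 cell barcodes were shared, none of them between ciliated cells.

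**Figure D1:**
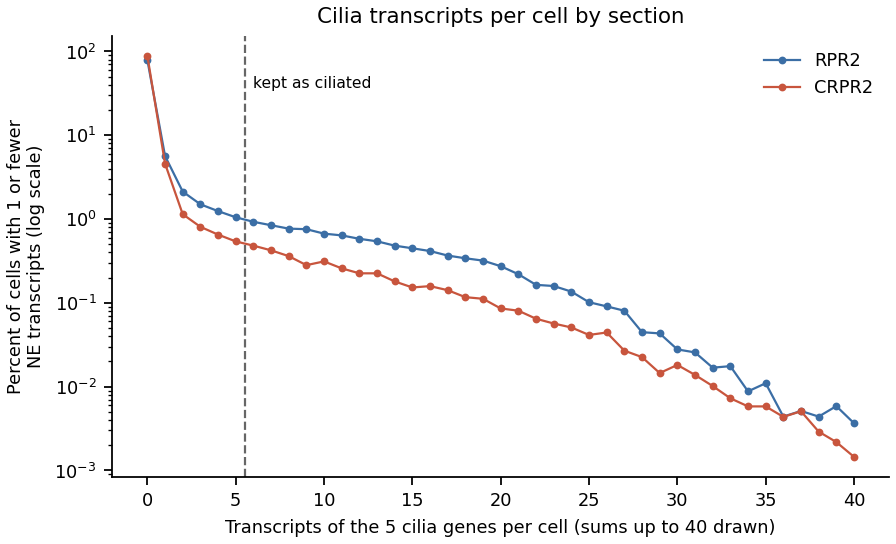
Share of cells with 1 or fewer NE transcripts (y axis, percent, log scale) at each number of transcripts of the 5 cilia genes (x axis, up to 40) in the RPR2 and CRPR2 sections. Points stand for sections, not replicates. Both curves fall without a gap at the limit (dashed line), where 1435 RPR2 and 745 CRPR2 cells had a sum of 5 and 1267 and 663 a sum of 6.

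The label was checked with *Foxj1*, the master regulator of motile ciliogenesis, and *Riiad1*, which were not in the rule. *Foxj1* was at 21065 CPM (20839 to 21293) in RPR2 ciliated cells and at 18936 CPM (18629 to 19247) in CRPR2 ciliated cells, against 871 and 715 CPM in all other cells. With each cell thinned to 50 transcripts, *Foxj1* was found in 63.8% (63.0 to 64.7) of RPR2 and 59.7% (58.4 to 61.0) of CRPR2 ciliated cells (87.3% and 87.0% unthinned). In endothelial comparison cells, which should lack it, the thinned share was 0.387% in RPR2 and 0.297% in CRPR2. They were picked with at most 1 cilia transcript, so the choice fixed this share in part. In secretory comparison cells the thinned share of *Foxj1* was 14.1% in RPR2 and 5.08% in CRPR2. These cells were mixed, with a summed level of myeloid list genes of 48649 CPM in RPR2 and 10983 CPM in CRPR2. Their shares, here and below, therefore set unlike cells of the sections side by side. The endothelial cells had medians of 110 and 116 transcripts. Thinning left out 338 RPR2 and 98 CRPR2 ciliated cells and 2472 and 1501 endothelial ones. *Riiad1* was at 12201 and 10186 CPM, against 645 and 558 CPM in other cells. The 10 genes with the largest ratio over other cells held 7 of the ciliated list in RPR2 and 6 in CRPR2, most of them genes of the rule. Outside the rule these were *Foxj1* and *Riiad1* in RPR2 and *Foxj1* in CRPR2. Of the other cell types' lists only *Reg3g*, a secretory gene, was among the 10, in CRPR2. The 7 genes of the ciliated list on the panel summed to 142353 CPM in RPR2 ciliated cells and to 121525 CPM in CRPR2 ciliated cells, against 4073 and 2283 CPM in other cells. The 5 genes of the rule gave 109087 and 92404 CPM of these sums, so the rule fixed most of this contrast. The negative control probes gave 131 and 63 transcripts in ciliated cells, 4.16 and 4.13 CPM per probe. The highest single control feature was at 27.3 CPM in RPR2 and at 19.6 CPM in CRPR2.

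Ciliated cells were 8.54% (8.40 to 8.68) of the RPR2 cells with at least 20 transcripts, and 1.62% (1.58 to 1.66) of such cells in CRPR2. The log2 ratio was -2.40 (-2.44 to -2.35). The sections differ in their NE cells, so shares were also taken over cells with at most 1 NE transcript, 136510 in RPR2 and 137569 in CRPR2. There the shares were 9.57% (9.41 to 9.72) and 4.01% (3.91 to 4.12), a log2 ratio of -1.25 (-1.30 to -1.21). Both ratios rest on the genes that chose the cells, and how much airway each section held was not measured here. For *Foxj1*, which was outside the rule, ciliated cells held 72.1% of those of the RPR2 section and 35.6% of those of the CRPR2 section.

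Genes outside the rule were compared between ciliated and other cells of each section. Of 236 genes outside the rule with at least 100 CPM in ciliated cells of both sections, 53 (22.5%) were at least 2-fold above all other cells in both, a contrast that the rule fixed in part and from which nothing is read. *Prom1*, a membrane glycoprotein of cell protrusions, was at 16351 CPM in RPR2 and at 18927 CPM in CRPR2, against 866 and 1358 CPM in other cells. *Anxa8*, an annexin, was at 10366 and 5695 CPM, against 433 and 225 CPM. Between the sections *Prom1* had a log2 ratio of 0.21 (0.18 to 0.24) and *Anxa8* one of -0.86 (-0.91 to -0.82). *Wif1*, a secreted inhibitor of WNT signaling, was at 2907 and 1939 CPM, against 182 and 149 CPM. *Timp4*, an inhibitor of matrix metalloproteinases, was at 2104 and 2152 CPM, against 164 and 70.2 CPM. Large folds over other cells were also seen for *Uox*, the urate oxidase gene (362 and 781 CPM, 20.7-fold and 31.2-fold above other cells), and *Rbp2*, a retinol-binding protein gene (273 and 448 CPM, 21.0-fold and 48.9-fold). *Aqp4*, a water channel, was at 2813 and 5896 CPM (9.22-fold and 9.74-fold), and *Fxyd4*, a regulator of the sodium pump, at 654 and 2296 CPM (9.96-fold and 19.4-fold).

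**Figure D2:**
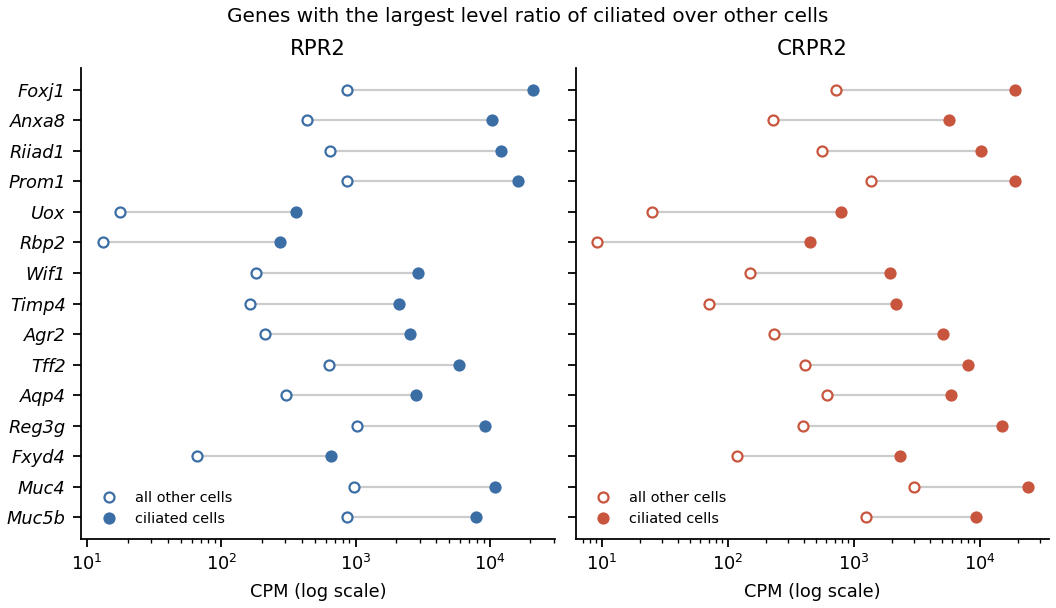
Levels (x axes, CPM, log scale) in ciliated cells (filled) and in all other cells (open) of RPR2 and CRPR2 for the 15 genes outside the rule with the largest ratio of ciliated over other cells. In both sections every filled point lies to the right of its open point, from *Foxj1* (24.2-fold and 26.5-fold) to *Muc5b* (9.14-fold and 7.42-fold).

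Secretory genes were abundant in the ciliated cells of both sections. The 20 genes of the secretory list on the panel summed to 160017 CPM in RPR2 and to 206805 CPM in CRPR2, a log2 ratio of 0.37 (0.36 to 0.38), against 32558 and 57591 CPM in other cells. *Scgb3a2* was its most abundant gene at 62653 and 55881 CPM, and was found in 89.3% and 88.2% of thinned ciliated cells (96.7% and 96.5% unthinned). In endothelial comparison cells the thinned share was 4.36% in RPR2 and 6.56% in CRPR2. Transcripts that segmentation assigns from neighboring cells cannot be told apart from a cell's own in these counts, and their part in the result was not tested.

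Of the secretory list, 12 of the 15 genes at 100 CPM in both sections were at least 2-fold above other cells in both, beside 22.5% of all genes so compared, and nothing is read from this count either. *Scgb3a1*, a secretoglobin of airway secretory cells, was at 12057 CPM in RPR2 and at 22425 CPM in CRPR2 (log2 ratio 0.90, 0.87 to 0.93). The gel-forming mucin *Muc5b* was at 7895 and 9230 CPM, and *Muc5ac*, its goblet cell relative, at 799 and 1629 CPM. *Muc4*, a mucin tethered to the membrane, was at 10897 and 23858 CPM, and *Muc1* at 9163 and 11626 CPM. *Tff2*, a trefoil factor, was at 5897 and 7988 CPM, and *Agr2*, which helps mucins fold, at 2538 and 5023 CPM. *Spdef*, a goblet cell factor, was at 561 and 915 CPM. Levels close to each other were seen for *Hp*, haptoglobin (22263 and 22055 CPM, log2 ratio -0.01, -0.04 to 0.01), *Gabrp*, a GABA receptor subunit (9759 and 9836 CPM, 0.01, -0.03 to 0.05), and *Wfdc2* (3776 and 4132 CPM, 0.13, 0.07 to 0.19). *Muc20* was at 896 and 1509 CPM and *Upk3a*, a uroplakin, at 69.1 and 123 CPM. *Tff1*, *Tff3* and *Msmb* were each under 10 CPM in both sections, and *Tff3* had 0 transcripts in CRPR2.

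Between the sections, most genes of ciliated cells differed by less than 2-fold. Of 284 genes outside the rule with at least 100 CPM in either section, 52 (18.3%) were more than 2-fold higher in CRPR2 and 15 (5.28%) more than 2-fold lower, with a median log2 ratio of 0.03 (quartiles, -0.36 and 0.75). In all other cells the median of the same genes was -0.05. Of the 67 genes past 2-fold, 32 were past 2-fold the same way in other cells, and 14 had the opposite sign there, 5 of them past 2-fold. The other cells are not alike between the sections, since their NE list genes summed to 26171 CPM in RPR2 and to 117427 CPM in CRPR2. The secretory list had 4 of 17 genes more than 2-fold higher (*Retnla*, *Muc16*, *Muc4* and *Muc5ac*) and 0 lower, with a median of 0.71. *Muc16* reached 100 CPM only in CRPR2, the section where it was higher.

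**Figure D3:**
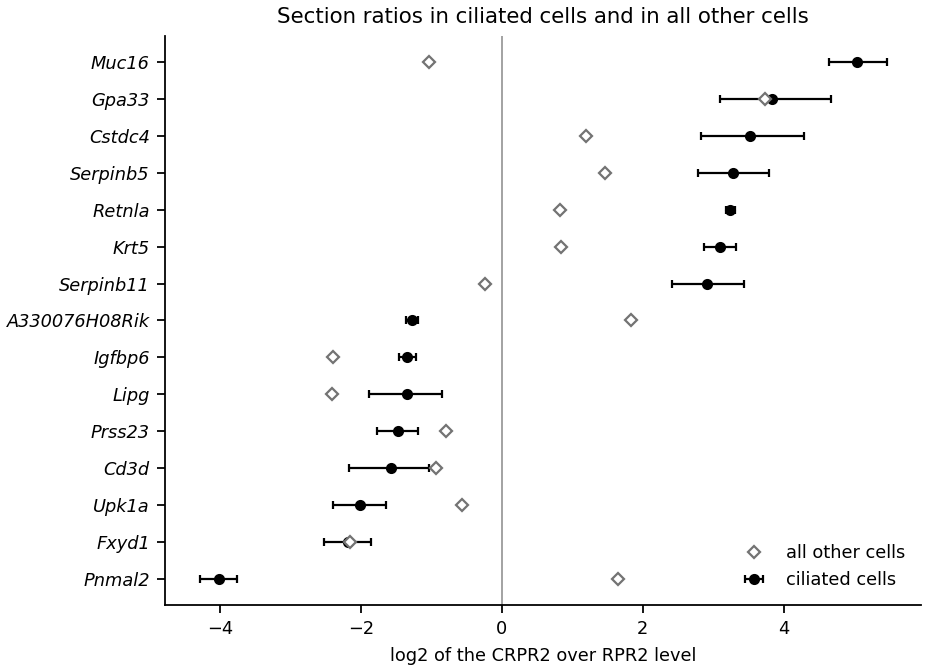
log2 ratio of CRPR2 over RPR2 levels (x axis) in ciliated cells (black, with 95% counting intervals) and in all other cells (open diamonds) for genes outside the rule among the 8 with the largest and the 8 with the smallest ratio in ciliated cells. *Pnmal2* and *A330076H08Rik* were lower in CRPR2 ciliated cells (-4.02 and -1.27) and higher in CRPR2 other cells (1.65 and 1.83), while *Muc16* was higher in the former (5.04) and lower in the latter (-1.03). Other cells held more NE transcripts in CRPR2 than in RPR2, so they are not alike between the sections.

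*Muc16*, a mucin tethered to the membrane, had the highest section ratio of the 284 genes. It was at 34.3 CPM (25.7 to 44.7) in RPR2 ciliated cells, 54 transcripts, and at 1129 CPM (1055 to 1207) in CRPR2 ciliated cells, 862 transcripts. The log2 ratio was 5.04 (4.65 to 5.47), against -1.03 in other cells. In thinned cells *Muc16* was found in 0.134% of RPR2 and 3.49% of CRPR2 ciliated cells (0.260% and 8.65% unthinned), so most CRPR2 ciliated cells had no transcript of it. The RPR2 share lay below that of endothelial comparison cells (0.217%) and the CRPR2 share above it (0.0969%), and 14 of the 17 thinned RPR2 cells with *Muc16* also had *Reg3g*. In secretory comparison cells *Muc16* was also found more often in CRPR2, at thinned shares of 0.386% (0.126 to 0.899) and 2.22% (1.85 to 2.65), for which the log2 ratio was 2.52 (1.26 to 4.17).

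*Retnla*, which encodes a resistin-like secreted protein, was found in many more CRPR2 than RPR2 ciliated cells. It was at 1533 CPM (1473 to 1595) in RPR2 and at 14531 CPM (14261 to 14804) in CRPR2. The log2 ratio was 3.25 (3.18 to 3.31), against 0.83 in other cells. It was found in 5.94% (5.53 to 6.36) of thinned RPR2 and 39.8% (38.5 to 41.1) of thinned CRPR2 ciliated cells (11.5% and 55.3% unthinned). The endothelial comparison cells were picked without *Retnla*, so they give no background for it. In secretory comparison cells, which were picked in part by *Retnla*, the thinned shares were 41.7% and 43.6%. Myeloid list genes summed to 48649 CPM in these cells in RPR2 and to 10983 CPM in CRPR2, so the 2 shares come from unlike cells.

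*Krt5*, the keratin of basal cells, was at 125 CPM (108 to 144) in RPR2 and at 1067 CPM (995 to 1143) in CRPR2, its log2 ratio being 3.09 (2.87 to 3.33), against 0.84 in other cells. It was found in 0.409% and 3.14% of thinned ciliated cells, and in 0.0477% and 0.0636% of endothelial comparison cells. In secretory comparison cells *Krt5* was also found more often in CRPR2, at thinned shares of 1.24% and 3.02%, a log2 ratio of 1.29 (0.548 to 2.13). *Aqp3*, a water channel of basal cells and the other panel gene of the basal list, was at 221 and 862 CPM. Both genes of this short list were more than 2-fold higher in CRPR2, with a median of 2.53, beside 18.3% of all 284 genes.

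The other genes with a large ratio that are named here had few RPR2 transcripts. *Gpa33*, a membrane glycoprotein, was at 10.8 and 155 CPM, and *Cstdc4*, a cystatin-like gene, at 12.7 and 145 CPM. The serine protease inhibitor family genes *Serpinb5* and *Serpinb11* were both at 26.6 CPM in RPR2 and at 258 and 200 CPM in CRPR2. In RPR2 none of these genes was above the highest single control feature (27.3 CPM), so their ratios are approximate. *Gpa33* had nearly the same log2 ratio in ciliated and in other cells (3.84 and 3.74). *Serpinb11* was slightly lower in CRPR2 in other cells (-0.24). In ciliated cells without *Reg3g* the log2 ratio of *Serpinb11* was 1.34 (0.25 to 2.44), against 2.91 in all ciliated cells. There *Gpa33* was at 2.52, against 3.84, and *Serpinb5* at 2.29, against 3.28.

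*Pnmal2*, a gene of the paraneoplastic antigen family, had the lowest section ratio of the 284 genes. It was at 2606 CPM (2527 to 2687) in RPR2 ciliated cells, 4108 transcripts, and at 161 CPM (134 to 192) in CRPR2 ciliated cells, 123 transcripts, a log2 ratio of -4.02 (-4.29 to -3.76). In other cells the order was turned, at 1928 CPM in RPR2 and at 6045 CPM in CRPR2. Other cells differ in make-up, with NE list sums of 26171 CPM in RPR2 and 117427 CPM in CRPR2. In secretory comparison cells the thinned shares of *Pnmal2* were 3.94% and 5.20%, a log2 ratio of 0.40 (-0.03 to 0.86). *Pnmal2* was found in 12.3% of thinned RPR2 and 0.978% of thinned CRPR2 ciliated cells, against 1.38% and 1.43% of endothelial comparison cells, so the CRPR2 share was below that background. In RPR2 its level was 2611 CPM in ciliated cells with 0 NE transcripts and 2470 CPM in those with 1. In CRPR2 these levels were 138 and 495 CPM.

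*A330076H08Rik* was at 4075 CPM in RPR2 and at 1691 CPM in CRPR2 ciliated cells, a log2 ratio of -1.27 (-1.36 to -1.18), and at 2013 and 7167 CPM in other cells. In ciliated cells without *Reg3g* its log2 ratio was -0.997, just under 2-fold. *Fxyd1*, a regulator of the sodium pump, was at 498 and 110 CPM, with nearly the same log2 ratio in ciliated and other cells (-2.18 and -2.15). *Upk1a*, a uroplakin, was at 354 and 87.7 CPM, *Prss23*, a serine protease gene, at 433 and 156 CPM, and *Igfbp6*, which binds insulin-like growth factors, at 2127 and 839 CPM. *Cd3d*, of the T cell receptor complex, was at 125 and 41.9 CPM, and *Lipg*, endothelial lipase, at 127 and 49.8 CPM. *Prss23*, *Igfbp6*, *Cd3d* and *Lipg* were also lower in CRPR2 in other cells (-0.79, -2.40, -0.93 and -2.42). In ciliated cells without *Retnla* the log2 ratio of *Prss23* was -0.89, under 2-fold, against -1.48 in all ciliated cells, and that of *Igfbp6* was -2.18, against -1.34.

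*Reg3g*, an antimicrobial lectin of secretory cells, and *Retnla* divided the ciliated cells. *Reg3g* was at 9211 CPM in RPR2 and at 14903 CPM in CRPR2, a log2 ratio of 0.69 (0.66 to 0.73), and at 1034 and 393 CPM in other cells. Ciliated cells with *Reg3g* but no *Retnla* transcript were 27.7% in RPR2 and 25.1% in CRPR2. Those with *Retnla* alone were 9.64% and 47.6%, those with both 1.82% and 7.70%, and those with neither 60.9% and 19.6%. In thinned cells, 63 RPR2 ciliated cells had both genes where independence would give 162, and 156 in CRPR2 where it would give 564. The groups differed in depth, with medians of 131, 126, 148 and 106 transcripts in RPR2 and 159, 129, 143 and 97 in CRPR2, in the same order.

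Other genes followed this division in both sections. *Scgb3a1* was at 29207 CPM in RPR2 ciliated cells with *Reg3g* alone and 3343 CPM in those with *Retnla* alone, and at 42157 and 11384 CPM in CRPR2. *Tff2* was at 14708 and 945.8 CPM in RPR2 and at 16031 and 3261 CPM in CRPR2. *Gp2*, a glycoprotein that binds bacteria, was at 3983 and 422 CPM in RPR2 and at 11324 and 3196 CPM in CRPR2. *Slc34a2*, a phosphate transporter of alveolar cells, had the opposite order, at 747 and 2922 CPM in RPR2 and 4983 and 7372 CPM in CRPR2. *Foxj1* varied less, from 18049 to 21583 CPM over the groups in RPR2 and from 17411 to 20284 CPM in CRPR2.

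*Muc16* and *Krt5* lay with *Reg3g*. In CRPR2, *Muc16* was at 3328 CPM in ciliated cells with *Reg3g* alone and 14.1 CPM in those with *Retnla* alone, and *Krt5* at 2858 and 5.65 CPM. In RPR2 the same levels were 96.1 and 0 CPM for *Muc16* and 322 and 6.02 CPM for *Krt5*. In both sections the levels of these 2 genes were thus higher in cells with *Reg3g* alone than in cells with *Retnla* alone. In thinned CRPR2 ciliated cells, *Muc16* and *Retnla* were found together in 3 cells where independence would give 75.2. In ciliated cells without *Reg3g* the section ratio of *Muc16* was 3.93 and that of *Krt5* 2.16, against 5.04 and 3.09 in all ciliated cells.

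**Figure D4:**
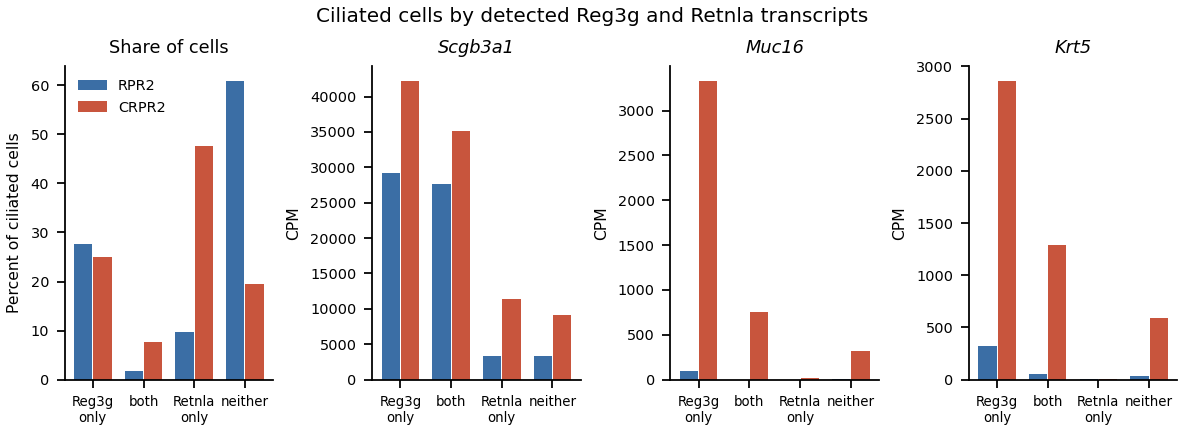
Ciliated cells grouped by detected *Reg3g* and *Retnla* transcripts in RPR2 and CRPR2, with the share of ciliated cells in each group (left, percent) and the levels of *Scgb3a1*, *Muc16* and *Krt5* (CPM). Bars start at 0 and stand for 1 section each. *Retnla* alone holds 47.6% of CRPR2 and 9.64% of RPR2 ciliated cells, while *Muc16* and *Krt5* are highest in CRPR2 cells with *Reg3g* alone (3328 and 2858 CPM).

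Transcripts of 5 genes known from basal and squamous epithelium, picked after their values were seen, gathered in few ciliated cells. Besides *Krt5*, these were *Krt13*, a keratin (53.3 and 330 CPM), *Col17a1*, the hemidesmosome collagen (76.8 and 367 CPM), *Trim29* (44.4 and 254 CPM) and *Serpinb5*. *Col17a1* was lower in CRPR2 in other cells, with a log2 ratio of -1.93. Ciliated cells with at least 2 transcripts of these 5 genes numbered 90 in RPR2 (0.689%) and 256 in CRPR2 (4.64%). Against cells with 0 such transcripts, they had lower *Foxj1* (18182 against 21136 CPM in RPR2, and 13666 against 19446 CPM in CRPR2). Their median cilia sum was 9 against 12, and 9 against 11, but this sum chose the cells and nothing is read from it. *Reg3g* was higher in them (35447 against 8835 CPM, and 30893 against 11968 CPM), and *Retnla* lower (153 against 1557 CPM, and 1123 against 16408 CPM). Other genes of such epithelium differed in direction. *Aqp3* was higher in them (8174 against 138 CPM in RPR2, and 9801 against 192 CPM in CRPR2), and *Sbsn* lower (458 against 1422 CPM, and 1036 against 1302 CPM). *Sox2*, a factor of airway epithelium, differed less (14286 against 12595 CPM, and 14615 against 12590 CPM). Their medians of 142 and 172 transcripts were above those of the cells with 0, at 115 and 126.

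Genes of alveolar type 2 (AT2) cells were found in ciliated cells, most of their transcripts being of the secreted *Sftpb* and *Sftpd*. The 5 AT2 list genes summed to 32724 CPM in RPR2 and to 37910 CPM in CRPR2 ciliated cells, against 50439 and 38160 CPM in other cells. Taking for each gene the section with the lower ratio, the median log2 ratio of ciliated over other cells was -3.00. *Slc34a2* was at 1295 CPM in RPR2 and at 6113 CPM in CRPR2, a log2 ratio of 2.24 (2.16 to 2.32), against -0.38 in other cells, and *Hc*, complement C5, was at 517 and 1269 CPM. These were the 2 of 5 genes more than 2-fold higher in CRPR2, beside 18.3% of all 284 genes. *Slc34a2* was found in 5.0% of thinned RPR2 and 21.4% of thinned CRPR2 ciliated cells (10.5% and 40.5% unthinned), which lay below the 23.0% and 27.3% of endothelial comparison cells. Between the sections the thinned share had a log2 ratio of 2.09 (1.95 to 2.24) in ciliated and 0.25 (0.21 to 0.29) in endothelial comparison cells. In secretory comparison cells the thinned shares were 12.4% and 46.3%, a log2 ratio of 1.90 (1.67 to 2.14). *Sftpb*, a surfactant protein gene, was at 17649 and 14358 CPM, and *Sftpd*, a lung collectin, at 13058 and 15764 CPM. The 2 alveolar type 1 list genes summed to 2806 and 2971 CPM, with 0 past 2-fold.

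Genes of other cell types were at lower summed levels in ciliated than in other cells. The 10 endothelial list genes summed to 7421 CPM in RPR2 and to 7576 CPM in CRPR2, led by *Ly6c1* (4752 and 4836 CPM), against 74130 and 36502 CPM in other cells. Of 8 with enough counts only *Vwf* was past 2-fold, at 167 and 392 CPM. The counts past 2-fold for this and the next lists stand beside 18.3% higher and 5.28% lower of all 284 genes. The 7 mural list genes summed to 16686 and 12206 CPM, led by *Acta2*, smooth muscle actin (8034 and 6546 CPM), with 0 of 6 past 2-fold. The 9 fibroblast list genes summed to 8446 and 6846 CPM, and *Itga8* (955 and 477 CPM) and *Dpt* (936 and 418 CPM) were more than 2-fold lower in CRPR2. The 12 myeloid list genes summed to 1737 and 2630 CPM, with 0 of 5 past 2-fold. The 9 lymphoid list genes summed to 1232 and 829 CPM, where *Ptprc*, the leukocyte antigen CD45 (101.5 and 238 CPM), was higher and *Cd3d* lower in CRPR2. *Cd3d* reached 100 CPM only in RPR2, the section where it was higher. The part of these transcripts in the results above was not tested.

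Transcripts of NE genes were few, since the rule limited them. The 5 NE genes of the rule summed to 263 CPM in RPR2 and to 436 CPM in CRPR2 ciliated cells, against 9664 and 39706 CPM in other cells. The 13 genes of the longer NE list, which hold genes of the rule too, summed to 3135 and 4820 CPM, led by *Cplx2*, of synaptic vesicle release (1975 and 2276 CPM). Of 5 with enough counts, the granins *Scg2* (76.1 and 181 CPM) and *Scg3* (45.7 and 113 CPM) were among those more than 2-fold higher in CRPR2. Both reached 100 CPM only in CRPR2, the section where they were higher, so nothing is read from this. They were also higher in CRPR2 in other cells (log2 ratios 1.94 and 2.08).

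Of the cells with a cilia sum of at least 6 and at least 20 transcripts, 147 of 13204 (1.11%, 0.941 to 1.31) in RPR2 and 250 of 5767 (4.34%, 3.82 to 4.89) in CRPR2 were kept out by 2 or more NE transcripts, a log2 ratio of 1.96 (1.66 to 2.27). *Foxj1* was at 13612 CPM in these cells in RPR2 and at 13306 CPM in CRPR2. *Mki67* was at 3808 and 5256 CPM in them, against 126 and 483 CPM in ciliated cells, and *Pnmal2* at 6871 and 4952 CPM. They are not counted as ciliated cells here. Among all cells with at least 20 transcripts, 136510 of 152915 in RPR2 and 137569 of 340609 in CRPR2 had at most 1 NE transcript. Having 2 or more was thus also more common in CRPR2 over all cells, so no trait of cilia-high cells is read from the ratio.

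Genes downstream of *Trp53* and *Rb1* were next described, since both were targeted in both genotypes. *Rb1* was at 2984 CPM in RPR2 and at 2952 CPM in CRPR2 ciliated cells, a log2 ratio of -0.02 (-0.09 to 0.06), and *Trp53* at 714 and 804 CPM, a log2 ratio of 0.17 (0.03 to 0.31). *Mdm2*, the p53 target that degrades p53, was at 11979 and 11414 CPM, against 4555 and 5696 CPM in other cells. *Bax*, which promotes apoptosis, was at 3453 and 3668 CPM. *Cdkn1a*, the p53 target p21, which blocks the cell cycle, was at 2621 and 6163 CPM, a log2 ratio of 1.23 (1.17 to 1.29), against 0.34 in other cells. *E2f1*, a factor held in check by RB, was at 65.3 and 287 CPM. *Cdkn1a* and *E2f1* were the 2 of the 6 genes of this list more than 2-fold higher in CRPR2, beside 18.3% of all 284 genes, with a list median of 0.13. *E2f1* reached 100 CPM only in CRPR2, the section where it was higher.

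Cell cycle genes had a low summed level in ciliated cells, which was higher in CRPR2 than in RPR2. The 7 cycling list genes summed to 2762 and 5184 CPM, against 13846 and 49224 CPM in other cells. *Mki67*, *Top2a*, *Ube2c* and *E2f1* were more than 2-fold higher in CRPR2 and 0 lower, beside 18.3% and 5.28% of all 284 genes. *Ube2c* and *E2f1* reached 100 CPM only in CRPR2, the section where they were higher, so nothing is read from this count. *Mki67*, the proliferation antigen, was at 126 and 483 CPM, and *Top2a*, a topoisomerase of dividing cells, at 209 and 431 CPM. *Mki67* or *Top2a* was found in 1.19% of thinned RPR2 and 3.65% of thinned CRPR2 ciliated cells (2.42% and 7.38% unthinned), a log2 ratio of 1.62 (1.31 to 1.94). Endothelial comparison cells had 1.26% (1.16 to 1.35) and 8.85% (8.54 to 9.16). The ciliated share overlapped the endothelial one in RPR2 (1.01 to 1.39) and lay below it in CRPR2 (3.17 to 4.19). The endothelial share itself had a log2 ratio of 2.82 between the sections, so it is not a fixed background. In secretory comparison cells the thinned shares were 4.09% and 26.0%, a log2 ratio of 2.67 (2.27 to 3.09). No cycling is read from the ciliated share. *Mki67* was higher in ciliated cells with 1 NE transcript than in those with 0, at 332 against 118 CPM in RPR2 and 1237 against 432 CPM in CRPR2.

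The Notch targets on the panel differed in direction. *Hes1* was at 8109 CPM in RPR2 and at 6029 CPM in CRPR2, a log2 ratio of -0.43 (-0.48 to -0.38), and stood above other cells in both sections (2481 and 2302 CPM). *Hey1* was at 1696 and 2891 CPM, with a log2 ratio of 0.77 against -0.89 in other cells, and *Hey2* at 173 and 102 CPM. The 3 genes summed to 9978 and 9023 CPM, and 0 were past 2-fold.

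Within the ciliated cells, levels were followed over strata of the cilia sum, with CPM taken without the 5 genes of the rule. *Foxj1* was at 17399, 24044, 27143 and 29598 CPM in RPR2 cells with sums of 6 to 9, 10 to 14, 15 to 19 and 20 or more, and at 15869, 20429, 24666 and 26699 CPM in CRPR2. *Prom1* went from 11340 to 25416 CPM in RPR2 and from 14327 to 28710 CPM in CRPR2 between the lowest and highest stratum. *Timp4* went from 1574 to 3358 CPM and from 1525 to 3413 CPM, and *Krt8*, a keratin of simple epithelium, from 25153 to 40400 CPM and from 25557 to 45741 CPM. Of 236 genes, 28 were higher in each successive stratum in both sections and 58 lower. These strata follow the counts that chose the cells and also differ in depth, so the order is a description.

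Genes of other cell types differed in direction over the same strata. In both sections 3 of 5 AT2, 4 of 5 mural, 3 of 7 fibroblast and 3 of 7 endothelial list genes were lower in each successive stratum, beside 58 of all 236 genes. Of the secretory list, 5 of 15 were lower in each (*Scgb3a2*, *Retnla*, *Muc1*, *Hp* and *Gabrp*) and *Muc4* was higher. *Ly6c1* of the endothelial and *Ly6g* of the myeloid list were also higher in each, beside 28 of all 236 genes. *Ly6c1* went from 4011 to 7161 CPM in RPR2 and from 3851 to 7124 CPM in CRPR2, and *Ly6g* from 914 to 1568 CPM and from 1381 to 2538 CPM. *Kdr*, the endothelial VEGF receptor, went from 2777 to 918 CPM in RPR2 and from 2215 to 727 CPM in CRPR2, and *Vegfa*, its ligand, from 4269 to 1360 CPM and from 6380 to 1944 CPM. *Sftpb* went from 26328 to 13193 CPM and from 20901 to 8964 CPM, and *Slc34a2* from 1903 to 884 CPM and from 8612 to 5061 CPM. *Krt5* went from 200 to 79.3 CPM in RPR2 and from 1834 to 252 CPM in CRPR2. *Retnla* went from 20096 to 9387 CPM in CRPR2, and *Reg3g* from 12259 to 24340 CPM there, while in RPR2 *Reg3g* went from 10886 to 9526 CPM. In the highest stratum *Retnla* was still at 1307 CPM in RPR2 and at 9387 CPM in CRPR2, and *Slc34a2* at 884 and 5061 CPM. *Pnmal2* was at 3766 and 89.1 CPM there.

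**Figure D5:**
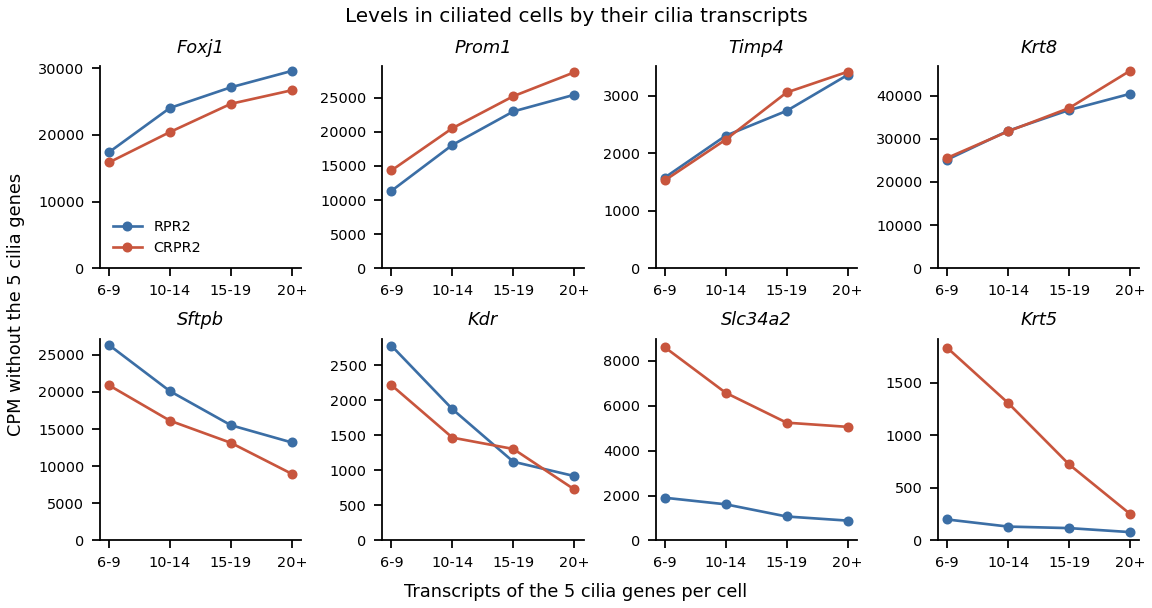
Levels (y axes, CPM without the 5 genes of the rule) of 8 genes in ciliated cells of RPR2 and CRPR2 in strata of the cilia sum (x axis, transcripts). Points stand for 1 section each. *Foxj1*, *Prom1*, *Timp4* and *Krt8* are highest in the top stratum, and *Sftpb*, *Kdr*, *Slc34a2* and *Krt5* lowest, with *Krt5* at 1834 CPM in the lowest and 252 CPM in the highest CRPR2 stratum.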

How the data were processed

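Xenium In Situ counts of a mouse gene panel were analysed for 1 RPR2 and 1 CRPR2 lung section. The authors deposited whole-number counts of decoded transcripts per cell and gene, with cells segmented from nuclei before deposit, and 62 control features, which stayed out of totals. The submitters' processing notes name Seurat 4.4.0. Cell positions and the single-cell RNA-seq data of the study were not used here.

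Cells were chosen by the limits in the report, and the members and gene lists were chosen with earlier results of these data known. Counts were summed per section and class and scaled to CPM. No test was run, since neither genotype had a replicate section. Ratios past 2-fold were counted among genes with at least 100 CPM in ciliated cells of either section. Named genes were those of the rule and of the ciliated list, the 15 with the largest ratio over other cells, the 8 highest and 8 lowest section ratios (10 CPM added for ranking), and list members. Some genes that this rule would name are not reported here. The groups by *Reg3g*, *Retnla* and basal genes and the genes described in them were chosen after their values were seen.

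For shares of positive cells, each cell was thinned to 50 transcripts and shallower cells were left out. Endothelial comparison cells had an endothelial list sum of at least 6 and at most 1 cilia and 1 NE transcript, and no *Reg3g*, *Retnla*, *Scgb3a1* or *Muc5b*. Secretory comparison cells had a sum of at least 6 over those 4 genes. They were a mixed class with many myeloid transcripts in RPR2, so they are not alike between the sections. Both definitions were changed after seeing the data. No doublet caller was run. Lists were ciliated, secretory, basal, alveolar type 1 and 2, NE, endothelial, mural, fibroblast, myeloid, lymphoid, cycling, p53 and RB, and Notch. Promoters came from RefSeq tables for GRCm38.p6. Scripts were tested on simulated counts. Figures were drawn with matplotlib 3.10.9, and values computed with pandas 2.3.3, scipy 1.17.1 and numpy 2.4.6 in Python 3.11.15.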

Additional observations from a re-analysis of the deposited data

How the results depend on the processing

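No paired analysis was possible because each genotype had 1 section. The ciliated share had a log2 ratio of -2.40, and of -2.33 with a cilia sum of at least 4, -2.49 with at least 10 and -2.47 without *Ccdc153* in the sum. Over cells with few NE transcripts it was -1.25, and -1.19, -1.35 and -1.33 under these settings, -1.18 with at least 50 transcripts and -1.33 with cells thinned to 100 transcripts first. The secretory list level (0.37) was 0.34 with a sum of at least 4, 0.43 with at least 10, 0.38 with 0 NE transcripts and 0.34 with the rule's genes left out of totals. The *Foxj1* level (-0.15) was -0.12 in cells without *Reg3g*, and its share of positive cells (-0.10) was -0.0043 without thinning. The cycling share (1.62) was 1.26 with 0 NE transcripts. The cause was not tested. Of 42 other settings fixed at the start for these summary results, 13 put a value outside its counting interval, and of 6 added after seeing the data, 2 did. The share of genes past 2-fold is among these results but has no counting interval, so its values are given instead. None turned a direction. The share of genes past 2-fold (23.6%, 67 of 284) ranged from 22.3% (52 of 233, with a minimum of 200 CPM) to 24.4% (77 of 315, with 50 CPM) over the settings fixed at the start, and was 34.8% (98 of 282) in cells without *Retnla* and 24.1% (67 of 278) in cells without *Reg3g*. The 8 genes with the highest and the 8 with the lowest section ratios kept their direction in all 111 recomputations. Of these, 23 put a ratio outside its counting interval. Without *Reg3g*-positive cells *Muc16* was at 3.93, *Krt5* at 2.16, *Gpa33* at 2.52, *Serpinb5* at 2.29, *Serpinb11* at 1.34 and *A330076H08Rik* at -0.997, just under 2-fold. Without *Retnla*-positive cells *Muc16* was at 5.90, *Krt5* at 3.91, *Gpa33* at 4.72, *Serpinb5* at 4.01, *Serpinb11* at 3.89, *Fxyd1* at -2.83, *Igfbp6* at -2.18 and *Prss23* at -0.89, under 2-fold. Few RPR2 transcripts lie behind the ratios of *Muc16*, *Gpa33*, *Cstdc4*, *Serpinb5* and *Serpinb11*, and intervals leave out all spread between animals.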
